A study of Rattus norvegicus with 4 samples.

Results

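The genes described here are 10 enzymes and partner proteins that make, or in 1 case inactivate, the eicosanoids: Alox5, Alox12, Alox15, Alox5ap, Ptgs1, Ptgs2, Ptges, Ltc4s, Lta4h and Hpgd. They were chosen by name, for their place in the pathway. All 10 were found on the arrays through 13 probe sets, out of 14217 genes with a single symbol and 31042 probe sets. The study used Affymetrix rat arrays to compare gene expression in epithelium cut out by laser microdissection, with 4 samples in all. Peri-implant epithelium, the collar that forms against a titanium alloy implant, is given by 2 arrays, and junctional epithelium, the collar that seals the gingiva to a tooth, by 2 arrays. All samples came from male Sprague Dawley rats, 4 weeks old at the start, and 20 rats were killed 4 weeks after the implant was placed. The labels give tooth extraction and implant placement as the treatment of every sample, so the junctional samples too are labelled as coming from operated animals. The sources used here do not say how many animals each array stands for, whether they were pooled, or which junctional epithelium was taken. The p-values below therefore measure only the spread between these samples, which may be technical.

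Eicosanoids are local lipid signals made from arachidonic acid, which phospholipases release from membranes. Lipoxygenases add oxygen to it and start the leukotrienes, lipoxins and hydroxy fatty acids, while cyclooxygenases start the prostaglandins and thromboxanes. In gingiva, prostaglandin E2 and leukotriene B4 are known as mediators of inflammation and neutrophil entry, and in stratified epithelium 12-lipoxygenases are major enzymes of arachidonate metabolism.

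By the second of 2 fits described below, Alox12 rose and Alox15 fell in peri-implant epithelium, and the other 8 of the 10 genes did not pass. By the first fit, 0 of the 10 passed. Alox12, the platelet-type 12-lipoxygenase, was 1.36-fold higher. Alox15, the leukocyte-type 12/15-lipoxygenase, was 4.09-fold lower. The 2 genes lie on either side of another lipoxygenase gene, Alox12e, on rat chromosome 10. By the second fit Alox12e fell by 0.99 on the log2 scale, close to the threshold. Ptgs2, the inducible cyclooxygenase, stood 1.26 higher on the log2 scale without passing in either fit, and its signal was above background on 1 array only.

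Promoter sequences are shown for Alox12 and Alox12e, neighbours that moved in opposite directions, and for Ptgs2, which had the largest difference among the genes that did not pass and whose arrays did not overlap. Each runs up to 250 bases before the start given in RefSeq's promoter table for rat assembly GRCr8, written 5′ to 3′ on the gene's own strand. For Alox12, whose annotated span begins 40 bases further upstream than that start, the 210 bases before the span are printed. That of Alox12 lies at chr10:55469240-55469449 on the minus strand and that of Alox12e at chr10:55540510-55540759 on the minus strand. That of Ptgs2 lies at chr13:64713813-64714062 on the plus strand. Capitals in the 2 lipoxygenase promoters mark the GC box GGGCGG, and capitals in the Ptgs2 promoter mark an E box and a CCAAT box on the opposite strand.
Alox12: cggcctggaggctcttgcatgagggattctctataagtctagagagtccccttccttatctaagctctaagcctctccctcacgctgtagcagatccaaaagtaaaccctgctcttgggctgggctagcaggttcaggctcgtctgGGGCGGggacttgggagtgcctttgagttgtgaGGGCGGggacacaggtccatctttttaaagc
Alox12e: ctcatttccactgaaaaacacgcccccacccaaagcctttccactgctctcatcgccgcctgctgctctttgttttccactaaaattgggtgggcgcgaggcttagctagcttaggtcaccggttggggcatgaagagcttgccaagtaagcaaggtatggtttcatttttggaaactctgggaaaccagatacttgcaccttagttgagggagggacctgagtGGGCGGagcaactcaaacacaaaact
Ptgs2: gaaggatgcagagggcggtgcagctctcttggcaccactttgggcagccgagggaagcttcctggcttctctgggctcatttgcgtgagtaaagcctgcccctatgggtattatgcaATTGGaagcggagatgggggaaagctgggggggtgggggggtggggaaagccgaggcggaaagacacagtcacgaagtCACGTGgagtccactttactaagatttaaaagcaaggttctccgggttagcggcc
The Alox12 promoter held 3 GC boxes, whose first bases lie at -104, -71 and -8 from the table's start, and the Alox12e promoter held 1, at -26. The Alox12 box at -8 lies inside the annotated span and is not printed. GGGCGG occurs on either strand in 30.5% of 33469 rat promoters of 250 bases. The E box CACGTG of Ptgs2 stood at -55 and occurs in 5.59% of promoters, and its CCAAT box at -133 is of a kind found in 34.0%. Ptgs2 also held a GC box at -238 and Alox12e a CCAAT box at -166, both left in lower case. None of the 3 held TATAAA, found in 12.9% of promoters, or the AP-1 letters TGANTCA, found in 6.34%. Both strands were searched and no 2 of the matches named overlap. A match describes the letters and not a bound site. Of the 10 genes, 8 had a promoter in the table, and Alox15 and Alox5ap did not.

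Signals are log2 values, whose precision is limited by the small number of arrays. Probe sets for bacterial genes, 27 in number, reached at most 6.42 on these arrays, which is taken as the background level, and 54.6% to 56.8% of probe sets lay above it on each array. Arrays of a group correlated at r = 0.911 in peri-implant and 0.914 in junctional epithelium across probe sets, against 0.882 to 0.887 between groups. Replicates differed more at low signal, with a median SD of 0.92 for means from 3 to 6.42, 0.30 from 6.42 to 8 and 0.07 above 12, so the dim genes below carry the widest errors. Of the keratinocyte marker list, 11 of 14 genes were measured and all 11 were above background, led by keratin 5, with 16.23 and 15.87 in peri-implant and 15.84 and 15.87 in junctional epithelium. Of 9 markers of junctional epithelium and the enamel organ, 4 were measured and 2 of them, Itgb4 and Krt19, were above background.

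Differences are peri-implant minus junctional. With limma's default fit, 0 of 31042 probe sets passed an adjusted p of 0.05 (0%), although 5247 had an unadjusted p under 0.05. In a second limma fit, whose error follows the signal (the intensity-trend fit), 8.9% of probe sets passed, and calls below use it, with p adjusted over all probe sets by the Benjamini-Hochberg method. An exact permutation test of 2 arrays against 2 gives no two-sided p below 0.333, so none was run on single genes. By the intensity-trend fit, 1 of the 10 genes rose, against 6.6% of all genes, and 1 fell, against 4.8% of all genes. The counts of genes that rose or fell in the lists below are to be read against the same shares. With the default fit 0 of the 10 passed, and 2 had an unadjusted p under 0.05. By size alone, 1 gene (Ptgs2) was at least 2-fold higher without overlap of the arrays, against 9.79% of all genes, and 1 (Alox15) at least 2-fold lower, against 6.37%. The arrays did not overlap for 5 of the 10 genes, against 56.3% of all genes. The members' shares are thus near those of the whole array, and their median difference was 0.02, against 0.05 for all genes.

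**Figure D1:**
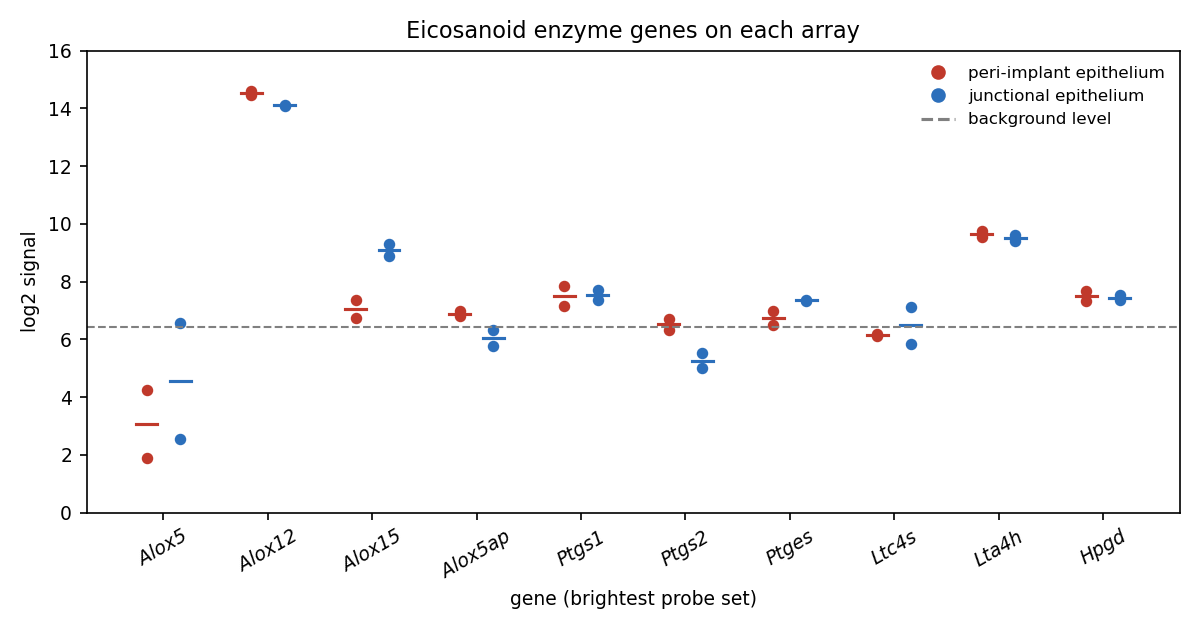
Log2 signal of the 10 genes on each of the 4 arrays, by each gene's brightest probe set, with peri-implant epithelium (red) left of junctional epithelium (blue), group means as bars and the background level of 6.42 as a dashed line. Alox12 and Alox15 are set apart by group with every array above background, while Alox5, Ltc4s and Ptgs2 lie around or below the line.

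The lipoxygenases gave the clearest differences. Alox12 (chr10:55456923-55469239) makes 12-HPETE, the precursor of 12-HETE, and is known from platelets and from epidermis. Its log2 signal was 14.62 and 14.48 in peri-implant epithelium, against 14.09 and 14.13 in junctional epithelium. The groups did not overlap, with means of 14.55 ± 0.09 in peri-implant and 14.11 ± 0.03 in junctional epithelium (SD, n = 2 each). The difference was 0.44 (95% interval 0.29 to 0.59), with an adjusted p of 0.00468 in limma's intensity-trend fit and 0.333 in the default fit. The call was lost when arrays were centred on their median, with a difference of 0.39 and an adjusted p of 0.0745. Leaving out 1 array in turn, the adjusted p was 0.0567 without peri-implant array 1, 0.174 without junctional array 1 and 0.141 without junctional array 2, and the call was kept without peri-implant array 2, at 0.0362. Over the 13 alternatives the difference was 0.37 to 0.51. Several of them leave the signals of Alox12 as they are. As the groups do not overlap, leaving out 1 array could not reverse the sign.

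Because Alox12 is the platelet-type enzyme, platelet markers were set beside it. Of 9 platelet and megakaryocyte markers, 6 were measured and 4 were above background on any array, and their summed log2 signal was 13.62 to 13.64 in peri-implant epithelium and 13.83 to 13.87 in junctional epithelium. Neither Gp9 nor Treml1 was above background on any array, and Itga2b was above it on 1 peri-implant array. That sum is mostly Ppbp, a platelet chemokine, with 13.48 and 13.50 in peri-implant and 13.68 and 13.75 in junctional epithelium. Of the 6 platelet markers, 3 had higher and 3 lower values in peri-implant epithelium, and none passed in the intensity-trend fit. The 3 lower ones were the markers above background on every array. These were Ppbp, Nbeal2 and Pf4, with differences of -0.22, -0.28 and -0.36, and the groups overlapped for Nbeal2. The summed signal of keratinocyte markers was 17.99 to 18.22 in peri-implant and 17.82 to 17.87 in junctional epithelium, and is mostly that of Krt5, Krt14 and Krt13, which did not pass. Of the 11 measured keratinocyte markers, 3 rose and 2 fell. Krt17, a keratin of activated epithelium, rose by 1.83, and Krt10, a keratin of cornifying cells, fell by 2.63, with 10.26 and 10.43 in peri-implant and 12.97 and 12.98 in junctional epithelium (adjusted p = 8.28e-07 in limma's intensity-trend fit). Both kept their calls without any 1 array. Krt15 rose by 0.42 and Krt4 by 0.41, and Krt1, the partner of Krt10, fell by 0.57. The calls of Krt15, Krt4 and Krt1 were lost without any 1 array (0.0532 to 0.325), and those of Krt15 and Krt4 also with median-centred arrays (0.0905 and 0.0843). The part of platelets and of these keratinocyte states in the Alox12 difference was not tested. In bulk samples such as these, fewer cells of a type and less RNA per cell cannot be told apart.

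Alox15 (chr10:55559060-55567535) oxygenates arachidonic and linoleic acid, also within membranes. In rodents it forms mainly 12-HETE and serves the synthesis of lipoxins and related mediators of resolution. Its log2 signal was 7.38 and 6.75 in peri-implant epithelium, against 9.29 and 8.90 in junctional epithelium. Both peri-implant arrays lay more than 1 log2 unit below both junctional arrays, and all 4 were above background. The means were 7.06 ± 0.45 in peri-implant and 9.10 ± 0.28 in junctional epithelium (SD, n = 2 each). The difference was -2.03 (95% interval -2.67 to -1.40), with an adjusted p of 0.00289 in limma's intensity-trend fit and 0.185 in the default fit. Over only the probe sets with a mean above background, the default fit gave 0.0312. The adjusted p of the intensity-trend fit was 0.0652 without peri-implant array 2, 0.15 without junctional array 1 and 0.104 without junctional array 2, and 0.0322 without peri-implant array 1. The difference lay between -2.35 and -1.72 over the 13 alternatives, and here too leaving out 1 array could not reverse its sign.

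Alox15 is known from macrophages and, in human, from eosinophils and airway epithelium, so markers of both leukocyte types were read beside it. Of 15 macrophage and dendritic cell markers, 14 were measured and 13 were above background, and 6 rose and 1 fell in peri-implant epithelium. Their summed signal was 14.50 to 14.61 in peri-implant and 13.92 to 14.05 in junctional epithelium, and is mostly that of Lyz2. By values, 12 of the 14 were higher and 2 lower. The 6 that rose were Laptm5 (by 1.65), Csf1r (1.42), Aif1 (1.26), C1qc (0.94), Fcgr1a (0.76) and Lyz2 (0.47). The probe sets of Aif1 differed in sign, and these 6 calls were not checked without single arrays. The marker that fell, in the direction of Alox15 and against these 6, was Mrc1, the mannose receptor of resident and alternatively activated macrophages. It had 5.86 and 6.13 in peri-implant epithelium, against 7.68 and 7.46 in junctional epithelium. Both peri-implant arrays were below background, so Mrc1 was at least 2.22-fold lower (adjusted p = 0.0312 in limma's intensity-trend fit), a call lost without any 1 array (0.11 to 0.244). The keratins Krt10 and Krt1, given above, also fell with Alox15. The part of macrophages and of these epithelial cells in the Alox15 difference was not tested. Of 8 eosinophil markers, 5 were measured, and Prg2, Epx, Il5ra and Ccr3 were at or below background on every array. Siglec5 was the 1 marker above it, and the list summed to 8.74 to 8.85 in peri-implant and 8.62 to 9.0 in junctional epithelium. The 4 measured markers of junctional epithelium and the enamel organ summed to 14.53 to 14.62 in peri-implant and 14.89 to 14.91 in junctional epithelium. That list moved in the direction of Alox15, led by the integrin Itgb4, which fell by 0.46 (adjusted p = 0.00525 in limma's intensity-trend fit). The call of Itgb4 was kept only without peri-implant array 1 (0.0255), against 0.0629 without peri-implant array 2 and 0.149 and 0.169 without a junctional array. The list's part in the Alox15 difference was not tested.

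Alox12e, the epidermal-type 12-lipoxygenase known in mouse, is no member of the 10 but lies between Alox12 and Alox15 as the only annotated gene there. It had 7.26 and 7.59 in peri-implant epithelium, against 8.22 and 8.60 in junctional epithelium. The groups did not overlap, and Alox12e was 1.98-fold lower, with a difference of -0.99 and an adjusted p of 0.0487 in limma's intensity-trend fit. This call was lost without any 1 of the 4 arrays, with adjusted p from 0.136 to 0.289. Aloxe3, a lipoxygenase of the skin's water barrier, had 8.21 and 8.52 in peri-implant and 8.09 and 7.93 in junctional epithelium, and its difference of 0.36 (interval -0.17 to 0.88) did not pass. Of the 8 lipoxygenases listed, 5 were measured, and 1 rose, 2 fell and 2 did not pass. Whether probe sets of these related genes also bind each other's RNA was not tested.

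Alox12 and Alox15 together span 110613 bases of chromosome 10, with gaps of 63804 bases between Alox12 and Alox12e and 18550 bases between Alox12e and Alox15. Within 150 kb on either side, 20 genes are annotated and 14 were measured, 11 of them besides the 3 lipoxygenases. These neighbours were taken by position after the lipoxygenase values were known. Of the 11, 8 were above background on all arrays. By the intensity-trend fit 1 of the 11 rose, against 6.6% of all genes, and 2 fell, against 4.8%. Slc16a13, a monocarboxylate transporter, rose by 1.86 (adjusted p = 0.00249), Pelp1, a nuclear receptor coregulator, fell by 0.91 (0.00185) and C10h17orf49 fell by 0.67 (0.025), all in limma's intensity-trend fit. As the mean of its probe sets, Slc16a13 stood 1.02 higher, with an adjusted p of 0.0746. Each of the 3 calls was lost without 3 or 4 of the single arrays, Pelp1 keeping its call only without peri-implant array 2 (0.035). Calls in both directions thus lay among the neighbours of the lipoxygenases, and Rnasek, the neighbour of Alox12, did not pass, with a difference of 0.12.

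**Figure D2:**
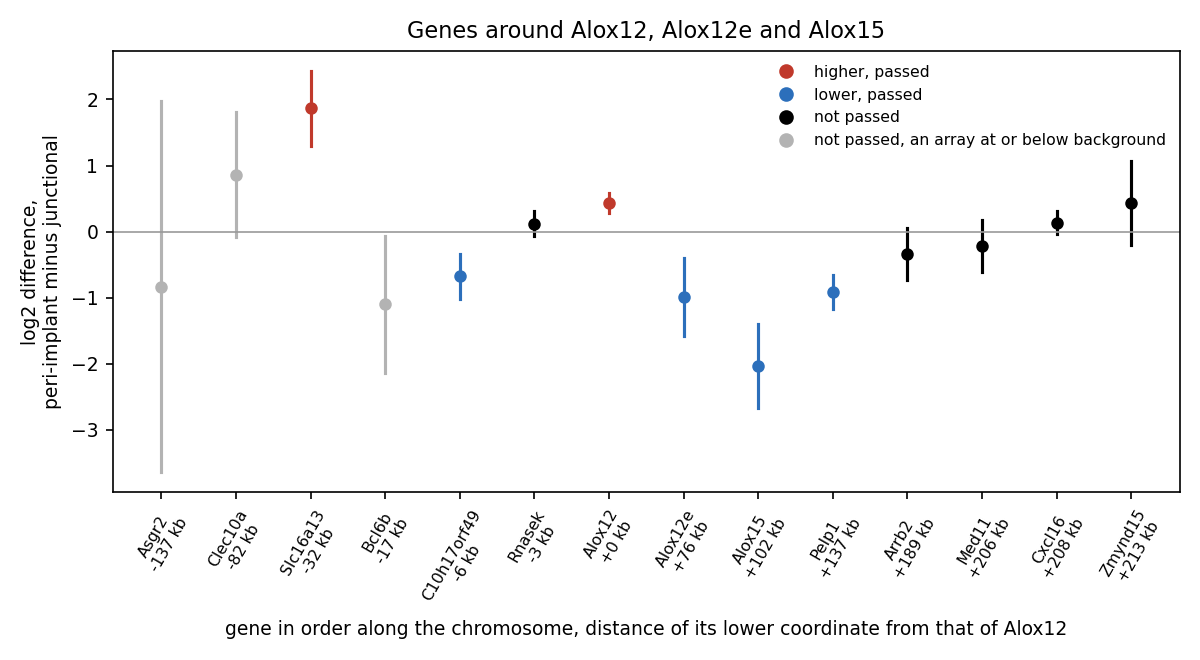
Log2 difference, peri-implant minus junctional, of the 14 measured genes around Alox12, Alox12e and Alox15 in their order along the chromosome, with 95% intervals of the intensity-trend fit as lines. Alox12 is above 0 and Alox12e and Alox15 are below it, and called genes of either sign lie beside them.

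Alox5 (chr4:151203948-151251126), the 5-lipoxygenase that starts leukotriene synthesis in myeloid cells, was barely detected. It had 4.24 and 1.89 in peri-implant epithelium, against 6.55 and 2.55 in junctional epithelium. Only junctional array 1 was above background, and the groups overlapped. Its difference of -1.49 had an interval of -5.14 to 2.17 and did not pass, so a change of several fold in either direction lies within the error.

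Alox5ap (chr12:10785254-10809295) is FLAP, the membrane protein that hands arachidonic acid to 5-lipoxygenase. It had 6.80 and 6.98 in peri-implant epithelium, against 5.79 and 6.31 in junctional epithelium. Both peri-implant arrays were above background and both junctional arrays were not. With the junctional arrays raised to background, the signal was 1.39-fold higher in peri-implant epithelium. The difference of 0.84 (interval -0.13 to 1.82) had an adjusted p of 0.272 in limma's intensity-trend fit and did not pass. Alox5ap is known from neutrophils and macrophages, and of 14 neutrophil markers 8 were measured, 5 rose and 0 fell. Their summed signal was 16.49 to 16.69 in peri-implant and 15.30 to 15.31 in junctional epithelium, led by S100a8 and S100a9, which keratinocytes can also make. The part of these cells in the Alox5ap difference was not tested.

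Lta4h (chr7:29856846-29888642), the hydrolase that turns leukotriene A4 into the neutrophil attractant leukotriene B4, was measured well on every array. It had 9.77 and 9.56 in peri-implant epithelium, against 9.62 and 9.42 in junctional epithelium. The groups overlapped, and the difference of 0.14 (interval -0.20 to 0.49) did not pass.

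Ltc4s (chr10:35060002-35066466) conjugates leukotriene A4 with glutathione to leukotriene C4. It had 6.18 and 6.13 in peri-implant epithelium, against 5.84 and 7.14 in junctional epithelium. Only junctional array 2 was above background, the groups overlapped, and the difference of -0.33 (interval -1.53 to 0.86) did not pass. Of the 9 genes listed for leukotriene synthesis, all 9 were measured, 1 rose, 1 fell and 7 did not pass. Ggt1, the transpeptidase that converts leukotriene C4 to D4, rose by 0.36, with 12.55 and 12.44 in peri-implant and 12.20 and 12.07 in junctional epithelium (adjusted p = 0.0335 in limma's intensity-trend fit). Mgst3, a microsomal glutathione transferase, fell by 0.48, with 10.39 and 10.59 in peri-implant and 10.96 and 10.99 in junctional epithelium (adjusted p = 0.0292 in the same fit). Both calls were lost without any 1 array, and that of Ggt1 also with median-centred arrays (0.205). Dpep2, Ggt5 and Mgst2 did not pass, and Mgst2 differed by 0.01 (interval -0.19 to 0.22).

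**Figure D3:**
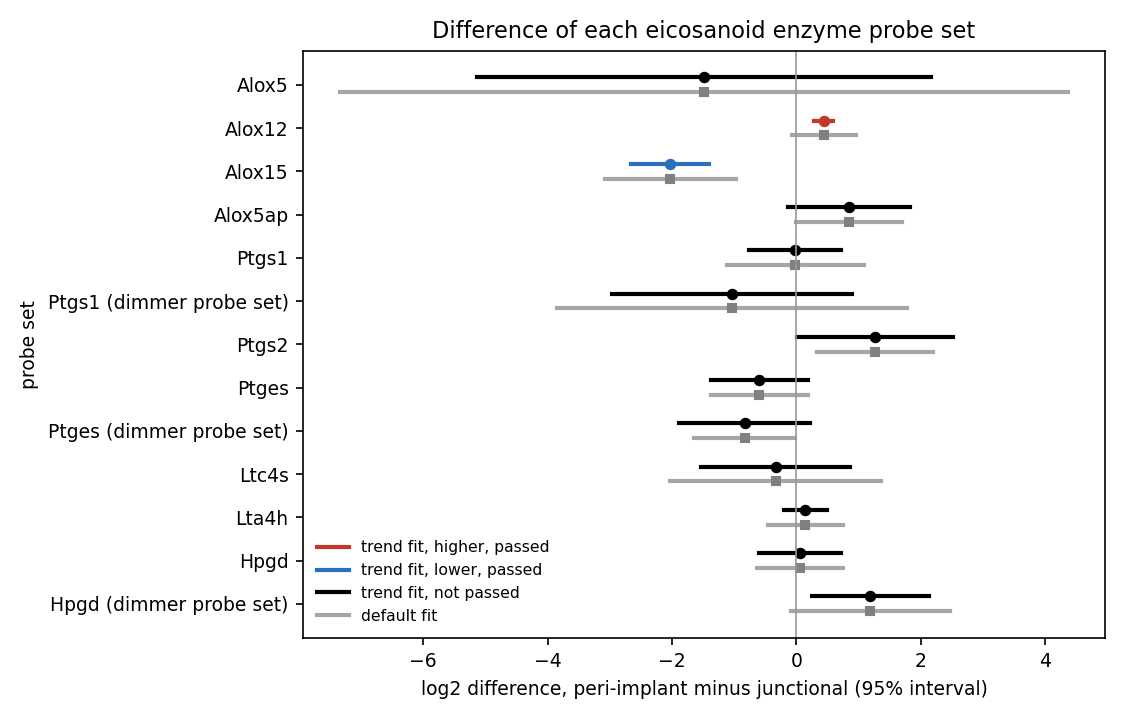
Log2 difference, peri-implant minus junctional, of all 13 probe sets of the 10 genes, with 95% intervals of the intensity-trend fit (coloured or black) and of the default fit (grey). The interval of Alox15 lies below 0 in both fits and that of Alox12 above 0 in the intensity-trend fit only, while that of Alox5 spans more than 7 log2 units.

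Ptgs1 (chr3:39981419-40002993), the constitutive cyclooxygenase, did not differ beyond its spread. Its brighter probe set had 7.86 and 7.15 in peri-implant epithelium, against 7.70 and 7.36 in junctional epithelium. The groups overlapped, and the difference was -0.02 (interval -0.76 to 0.72). Its dimmer probe set was below background on all 4 arrays.

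Ptgs2 (chr13:64714063-64722320), the cyclooxygenase induced by cytokines and growth factors, had 6.34 and 6.71 in peri-implant epithelium, against 5.53 and 5.0 in junctional epithelium. The groups did not overlap, but only peri-implant array 2 was above background. The means were 6.52 ± 0.26 in peri-implant and 5.26 ± 0.37 in junctional epithelium (SD, n = 2 each). The difference of 1.26 (interval 0.00 to 2.52) had an adjusted p of 0.201 in limma's intensity-trend fit and did not pass. With the junctional arrays and peri-implant array 1 raised to the background level, the signal was 1.11-fold higher in peri-implant epithelium. Most of the 1.26 thus lies in signals that the arrays do not measure.

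Genes that induce or regulate Ptgs2 and Ptges were read beside them. Of 19 listed, all 19 were measured. Of these, 11 rose, against 6.6% of all genes, 0 fell, against 4.8%, and 8 did not pass. The list mixes inducers with inhibitors such as Socs3, so its count has no single meaning for Ptgs2. Il1b, a cytokine inducer of Ptgs2, rose by 1.56, with 13.38 and 13.36 in peri-implant and 11.83 and 11.79 in junctional epithelium (adjusted p = 3.76e-06 in limma's intensity-trend fit). Nfkb1, a subunit of the NF-kappaB factor, rose by 1.20, Egr1, an immediate early factor, by 1.03, and Socs3, a cytokine-induced inhibitor of signalling, by 1.28. Fos rose by 2.47 by its brightest probe set, but its probe sets differed in sign, and as their mean it stood 1.02 higher with an adjusted p of 0.115. Leaving out single arrays, Fos and Il1b kept their calls each time, while Nfkb1 and Egr1 lost theirs without either junctional array (0.0532 to 0.0561) and Socs3 without any 1 array (0.0752 to 0.114). Tnf, Il6, Rela and the glucocorticoid receptor Nr3c1 were among those that did not pass. The neutrophil and macrophage markers rose with these genes, as given above, and their part in the list's count was not tested.

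Ptges (chr3:34575643-34586987), the inducible microsomal synthase that converts prostaglandin H2 to E2, was lower in its values without passing. Its brighter probe set had 7.00 and 6.51 in peri-implant epithelium, against 7.35 and 7.36 in junctional epithelium. The groups did not overlap, and the difference was -0.60 (interval -1.38 to 0.18, adjusted p = 0.332 in limma's intensity-trend fit). Its dimmer probe set had 5.80 and 5.93 in peri-implant epithelium, against 6.44 and 6.95 in junctional epithelium, again without overlap. Both peri-implant arrays of that probe set were below background, and with them raised to it the signal was 1.21-fold lower. The difference before raising was -0.83 (interval -1.88 to 0.22, adjusted p = 0.315 in the same fit). Both probe sets of Ptges thus had lower values in peri-implant epithelium, whereas Ptgs2 had higher ones, and neither gene passed.

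Of 11 synthases listed for prostaglandins and thromboxane, Ptges included, 10 were measured, 1 rose, 1 fell and 8 did not pass. Prxl2b, a prostaglandin F synthase, fell by 0.87, with 8.99 and 8.95 in peri-implant and 9.74 and 9.94 in junctional epithelium (adjusted p = 0.00902 in limma's intensity-trend fit). Ptges3, the cytosolic prostaglandin E synthase that is also the co-chaperone p23, rose by 0.40 (adjusted p = 0.0491). The call of Ptges3 was lost with median-centred arrays (0.122) and in the fit without the robust prior (0.0508). Both calls were lost without any 1 array, at 0.0848 to 0.149 for Prxl2b and 0.138 to 0.33 for Ptges3. Akr1b1, Cbr1 and Ptges2 did not pass, with differences of 0.56, 0.45 and 0.19.

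Hpgd (chr16:38996876-39034831) is the dehydrogenase that inactivates prostaglandin E2, and its 2 probe sets gave different pictures. The brighter had 7.68 and 7.32 in peri-implant epithelium, against 7.53 and 7.35 in junctional epithelium, overlapping, with a difference of 0.06 (interval -0.61 to 0.72). The dimmer had 7.39 and 7.41 in peri-implant epithelium, against 6.68 and 5.74 in junctional epithelium, without overlap. Its difference of 1.19 (interval 0.25 to 2.13) had an adjusted p of 0.114 in limma's intensity-trend fit and did not pass, and 1 of its junctional arrays was below background. Of 6 genes listed for inactivation and transport of prostaglandins, 1 rose and 0 fell. Ptgr3, a prostaglandin reductase, rose by 0.91, with 8.76 and 8.83 in peri-implant and 8.10 and 7.68 in junctional epithelium (adjusted p = 0.0376 in the same fit). That call was lost with median-centred arrays (0.0567), as the mean of its probe sets (0.145, with a larger difference of 1.89) and without any 1 array (0.146 to 0.216). The prostaglandin transporter Slco2a1 did not pass, and its probe sets differed in sign.

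**Figure D4:**
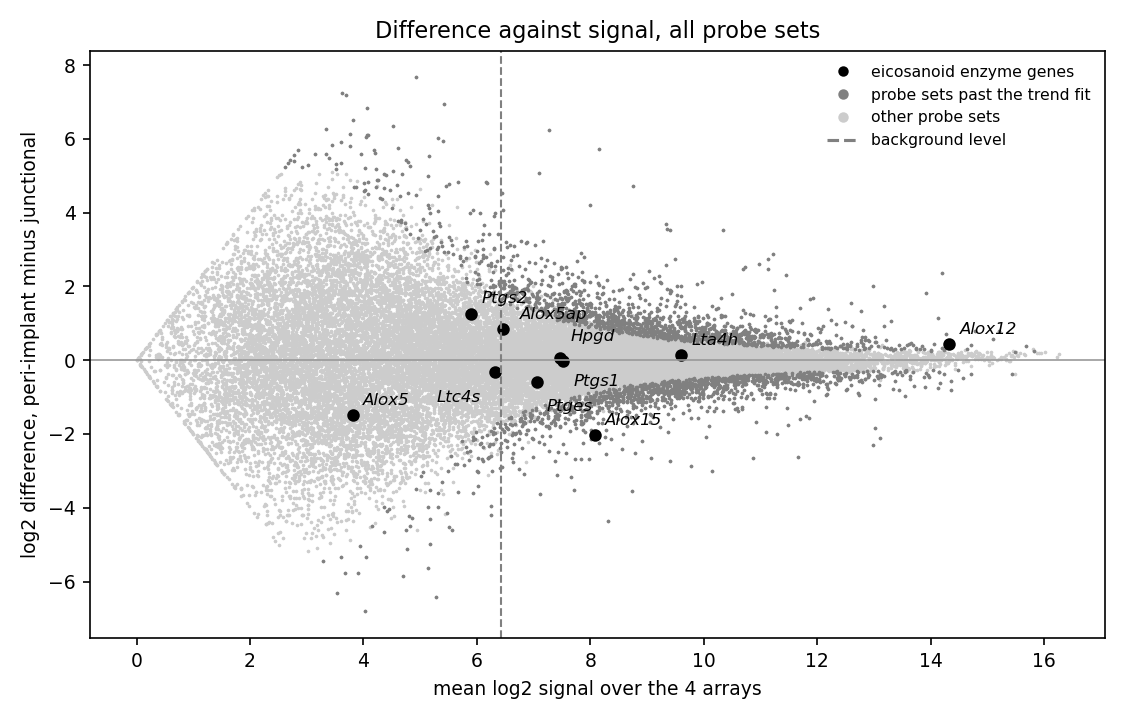
Log2 difference, peri-implant minus junctional, against mean log2 signal over the 4 arrays for 31042 probe sets, with the 10 genes named and the background level of 6.42 as a dashed line. Probe sets past the intensity-trend fit (dark grey) lie outside a band that narrows with signal, where Alox12 passes at a difference of 0.44 and Ptgs2 does not at 1.26.

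Around the 10 genes, the eicosanoid pathway was listed in 9 groups holding 92 further genes, of which 69 were measured and 42 were above background on any array. Of the 69, 6 rose, against 6.6% of all genes, 6 fell, against 4.8%, and 57 did not pass. Their median difference was 0.19, or 0 once signals under the background level were set to it. The largest difference among those that passed with every array above background was that of Pla2g2a, a secreted phospholipase A2 induced in inflammation. It had 12.55 and 12.46 in peri-implant epithelium, against 9.52 and 10.01 in junctional epithelium. It was 6.69-fold higher (difference 2.74, adjusted p = 8e-06 in limma's intensity-trend fit), and the call was kept without any 1 array (at most 0.016).

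Of 27 phospholipases and related genes of arachidonate release, 19 were measured, 3 rose and 0 fell. Beside Pla2g2a, Pla2g12a, another secreted phospholipase, rose by 0.65 (adjusted p = 0.0235) and Lpcat3, which puts arachidonate back into membrane lipid, by 0.59 (0.0374), both in limma's intensity-trend fit. Both calls were lost with median-centred arrays (0.0576 and 0.0753) and without any 1 array. Pla2g4a, the cytosolic phospholipase that supplies arachidonate to both branches, had 7.81 and 7.99 in peri-implant and 7.18 and 7.18 in junctional epithelium. Its groups did not overlap, and the difference of 0.72 (interval 0.09 to 1.34) did not pass, with an adjusted p of 0.145 in the same fit.

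Among the receptors, 7 of 9 for prostanoids and 7 of 14 for leukotrienes, lipoxins and resolvins were measured, and 1 gene of each list fell and 0 rose. Ptgfr, the receptor for prostaglandin F2 alpha, had 5.54 and 5.82 in peri-implant epithelium, against 8.27 and 8.32 in junctional epithelium. Both peri-implant arrays were below background, so Ptgfr was at least 3.67-fold lower (adjusted p = 0.00206 in limma's intensity-trend fit). As the mean of its probe sets the adjusted p was 0.0672, and without either junctional array 0.117 and 0.106. Lgr6, reported as a receptor for maresin 1 and known as a stem cell marker in skin, fell by 1.18, with 7.22 and 7.28 in peri-implant and 8.61 and 8.25 in junctional epithelium (adjusted p = 0.0233 in the same fit). The call of Lgr6 was lost without any 1 array (0.124 to 0.233). Ptger1, a receptor for prostaglandin E2, had 6.45 and 7.60 in peri-implant epithelium, against 7.78 and 8.41 in junctional epithelium. Its groups did not overlap, and the difference of -1.07 (interval -1.98 to -0.16) did not pass, with an adjusted p of 0.138. It passed with signals raised to background (0.0121 in the same fit). Its own 4 signals lie above that level and did not change, so this call comes from the error estimated over other probe sets. Without 1 array its difference ran from -1.65 to -0.49. The leukotriene B4 receptor Ltb4r had 8.54 and 8.67 in peri-implant and 8.14 and 8.53 in junctional epithelium and did not pass, with a difference of 0.26 (interval -0.23 to 0.76).

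Of 16 epoxygenases, hydroxylases and epoxide hydrolases, 14 were measured, 0 rose and 1 fell. That gene, Cyp4f17, was above background on 1 junctional array only (adjusted p = 0.0413 in limma's intensity-trend fit). With signals of all arrays raised to background it was 1.2-fold lower, and the call was lost (0.726 in the same fit). The call was also lost in the fit without the robust prior (0.0502) and without any 1 array. Of 10 genes known to regulate Alox15 or Alox5, 9 were measured and 1 rose. Il4r, the receptor subunit for interleukin 4 and interleukin 13, which induce the human ALOX15 gene in monocytes, rose by 0.85 (adjusted p = 0.00487), a call lost without any 1 array (0.0624 to 0.125). Stat6, the factor downstream of Il4r, had 9.40 and 9.39 in peri-implant and 9.39 and 9.29 in junctional epithelium and differed by 0.05 (interval -0.29 to 0.39). Of the skin barrier lipoxygenase pathway, 2 of 10 genes were measured, Aloxe3 and Pnpla1, and neither passed.

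**Figure D5:**
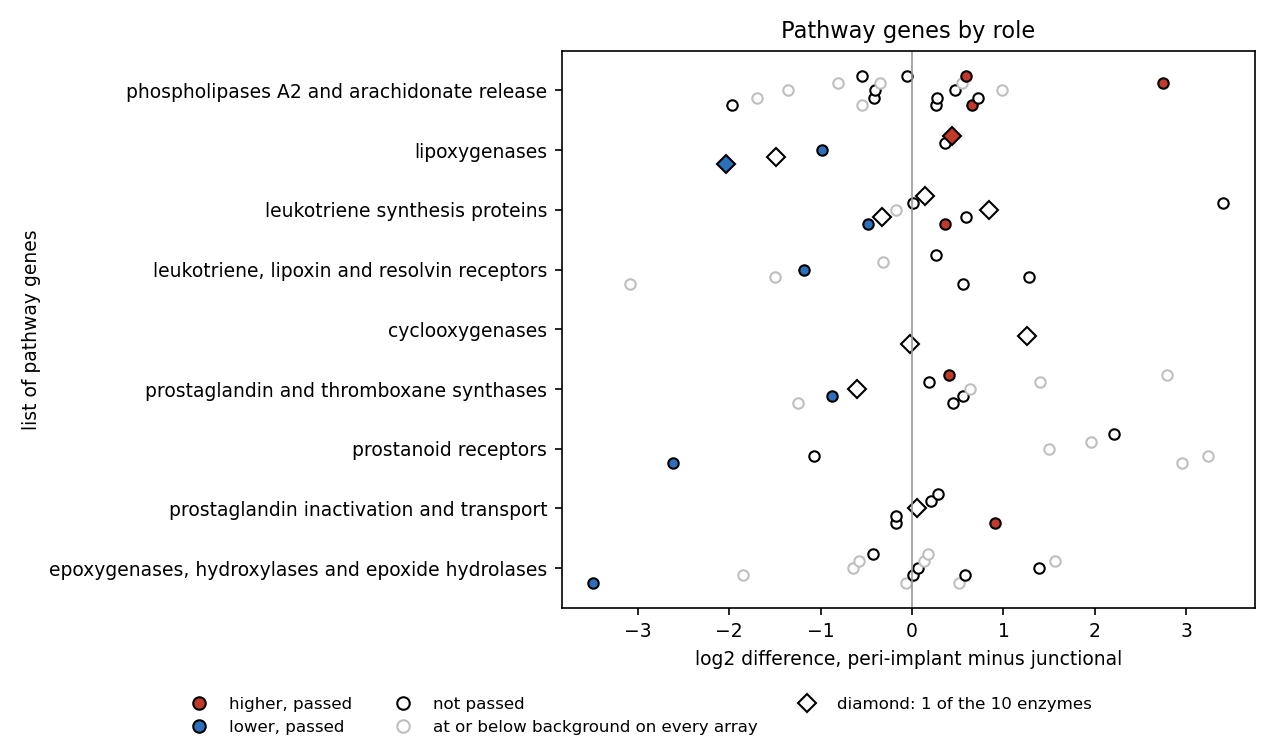
Log2 difference, peri-implant minus junctional, of the 79 measured pathway genes in 9 groups, with the 10 enzymes as diamonds, red for genes that rose, blue for genes that fell, open black for those that did not pass and grey for those at or below background on every array. Most symbols are open, and both red and blue symbols appear among the lipoxygenases, where Alox12 lies right of 0 and Alox15 and Alox12e left of it.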

How the data were processed

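RNA was taken from laser-microdissected epithelium, extracted with the RNeasy Micro Kit, amplified with the Ovation system and labelled with the Encore Biotin module, per the labels' protocols. Each of the 4 arrays has 31099 deposited log2 signals, and the sources used here do not say how the authors computed or normalized them. On inspection they show a mean linear signal of 500.2 on each array after trimming 2% at each end, and a floor at log2 0 that holds 378 to 729 probe sets per array. Control probe sets (57) were left out and no array was normalized again. Genes came from the platform's annotation, in which 20826 probe sets carry 1 symbol, 436 several and 9780 none, and were matched by gene identifier to GRCr8 for symbols and positions. The brightest probe set over the 4 arrays stands for its gene.

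Groups were taken from the sample titles. The difference between peri-implant and junctional epithelium was fitted with limma 3.58.1 under R 4.3.3 (functions lmFit and eBayes, two-sided, 2 residual degrees of freedom), once with the default prior and once with an intensity trend and a robust prior, with Benjamini-Hochberg adjustment over all 31042 probe sets and a threshold of 0.05. The second fit was added because the first passed 0 probe sets in an earlier analysis. The members, the pathway and marker lists and both fits were chosen with earlier results of these data known. The scripts were tested on simulated data. Where a group lay at or below background, its signals were raised to it. For genes that passed, the fold is then given as "at least". This concerns the limit of the signal and not the error of the difference. Summed signals are log2 of summed linear values.

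The text names all 10 genes with every probe set, up to 5 further genes of each pathway list (those past the intensity-trend fit first, then by size, leaving out genes at background on every array) and up to 4 genes of each marker list by signal. The genes beside Alox12 and single markers at background were named outside this rule, after their values were seen. So were Tnf, Il6, Rela, Nr3c1, Krt1, Krt4, Krt10, Krt15, Krt17, Laptm5, Csf1r, Aif1, Mrc1, Postn, Pdgfra, Tek and Tie1. Promoters came from RefSeq. The alternatives were another scaling, signals raised to background, a filter on dim probe sets, the mean of a gene's probe sets, adjustment over genes, other priors, the replicate number as a block and each array left out.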

Additional observations from a re-analysis of the deposited data

How the results depend on the processing

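Of the 10 genes, 2 passed the intensity-trend fit as reported, 1 with arrays centred on their median, and 0 to 1 when 1 array was left out, where the lone array of a group is assumed to vary like the other group. The genes at least 2-fold apart without overlap numbered 2 as reported, 1 with signals raised to background, 1 over only probe sets with a mean above background, and 2 to 3 without 1 array. Calls of the default fit over all probe sets numbered 0 as reported, 350 with signals raised to background and 1555 over probe sets with a mean above background. Calls of the intensity-trend fit numbered 2762 as reported, 4202 with the replicate number as a block, 73 to 353 without 1 array, and 2245 to 3934 under the other settings. The cause was not tested beyond the smaller number of arrays or probe sets that these settings leave.

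Titles number the samples, but the numbers are not stated to pair animals. Deviations of same-numbered samples correlated at 0.0394 over all probe sets. Dim probe sets with a wide spread are included, so this value cannot decide whether the samples were paired. With the replicate block both Alox12 and Alox15 kept their calls, and Pla2g3 (0.041) and Ptger1 (0.0258) gained one. Ptger1 also gained one with signals raised to background (0.0121), although that setting left its own signals unchanged.

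Some differences, none of them called, reversed in sign. Hpgd became -0.0053 with quantile normalization, Mgst2 -0.036 with median centring, and, as means of all probe sets, Slco2a1 became -0.17, Cmklr1 -0.089 and Cyp2j3 0.34. Without 1 array, differences ranged from -0.12 to 0.24 for Hpgd, -0.38 to 0.33 for Ptgs1, -3.49 to 0.51 for Alox5, -0.98 to 0.31 for Ltc4s, -0.10 to 0.12 for Mgst2, -0.33 to 0.11 for Pnpla1, -0.17 to 0.36 for Mapkapk2, -0.049 to 0.42 for Ptges2, -0.10 to 1.22 for Cmklr1, -0.16 to 2.93 for Cyp4f6 and -0.069 to 0.21 for Cyp2j4. Signals near background limit Alox5, Ltc4s, Ptgs2 and Alox5ap.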

Other observations

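Some cell types that can make or use eicosanoids were hardly seen on these arrays. Of 12 mast cell markers, 11 were measured and 2, Kit and Gata2, were above background on any array, while Cpa3, Tpsab1 and Tpsb2 were at or below it on every array. Hpgds, the prostaglandin D synthase of mast cells, was also at or below background on every array, with 5.41 and 6.31 in peri-implant epithelium and 0.76 and 5.40 in junctional epithelium. Of 8 B and plasma cell markers, 5 were measured and 0 were above background on any array. Of 10 T and NK cell markers, 9 were measured and 5 were above background on any array, and 1 of the 9, Cd2, rose and 0 fell. By values, 6 of the 9 were higher and 3 lower in peri-implant epithelium. Cd4, Cd3g and Cd8a were above background on both peri-implant arrays and on neither junctional array, as was Cd2. Their differences of 1.42, 1.26 and 1.02 did not pass, and the probe sets of Cd8a differed in sign. Cd2 had 7.57 and 7.90 in peri-implant epithelium, against 5.34 and 5.79 in junctional epithelium, and was at least 2.49-fold higher (adjusted p = 0.012 in limma's intensity-trend fit), a call lost without any 1 array (0.103 to 0.141).

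By values, 9 fibroblast markers were higher and 1 lower in peri-implant epithelium. Of the endothelial markers, 3 were higher and 5 lower. All 10 fibroblast markers were above background, 4 rose and 1 fell, and they summed to 15.81 in peri-implant and 15.55 to 15.56 in junctional epithelium. Postn rose by 0.996 (adjusted p = 0.000456 in limma's intensity-trend fit) and Pdgfra fell by 1.04 (0.00583 in the same fit). Neither call was checked without single arrays. Col1a1, the collagen I chain, rose by 0.32 (adjusted p = 0.0169 in limma's intensity-trend fit), a call lost with median-centred arrays (0.197), as the mean of its probe sets (0.0532) and without any 1 array (0.0698 to 0.245). Of 9 endothelial markers, 8 were measured, 0 rose and 0 fell, and they summed to 10.99 to 11.09 in peri-implant and 11.10 to 11.39 in junctional epithelium. Tek differed by -0.98 and Tie1 by 0.87 without passing. The part of these cells in the differences of the eicosanoid genes was not tested.

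As a sign of RNA length, the 3' control probe set of Gapdh exceeded its 5' one by 0.52 and 0.53 in peri-implant epithelium and 0.68 and 0.58 in junctional epithelium on the log2 scale. Its part in the results was not tested.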
